A study of Mus musculus with 6 samples.

Results

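The genes described here are 10 genes of MHC class I antigen presentation, taken by name: Nlrc5, Tap1, Tap2, Tapbp, Psmb8, Psmb9, Psmb10, B2m, H2-K1 and H2-D1. They were measured by 15 probes, of which 13 were kept, among 13496 genes tested. The samples were crypts isolated from mouse intestines, with 3 arrays per group. The control mice carried the floxed Arid1a allele without Cre (Arid1a f/f), and the knockout mice carried the same alleles with Villin-Cre (Villin-Cre; Arid1a f/f). The protein made from Arid1a belongs to SWI/SNF, a complex that moves nucleosomes. The strain is given as mixed for all samples, and age, sex and the part of the intestine are not given in the sources used here. Villin-Cre acts in the gut epithelium, so that other cells isolated with the crypts keep Arid1a, and the controls carry no Cre. The labels do not state whether each sample came from a separate mouse, so part of the spread behind a p-value may be technical.

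MHC class I molecules display peptides from inside the cell to CD8+ T cells. The proteasome cuts proteins into peptides, and inducible catalytic subunits (Psmb8, Psmb9 and Psmb10) replace constitutive ones to form the immunoproteasome. The TAP transporter (Tap1 and Tap2) carries peptides into the endoplasmic reticulum, tapasin (Tapbp) holds empty class I molecules beside it, and a heavy chain (H2-K1 or H2-D1) pairs with beta-2-microglobulin (B2m) to bind the peptide. Nlrc5 is a transactivator of these genes, and interferon gamma raises the pathway in many cell types, intestinal epithelium among them.

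The promoters of the class I genes carry short elements through which these inputs are known to act, and those of the heavy chains and B2m are shown because they share an arrangement. The sequences are RefSeq's, on assembly GRCm38.p6, printed 5′ to 3′ on the strand of the gene, except that the stretch between Psmb9 and Tap1 is printed on the plus strand. Promoter sequences were matched for 8 of the 10 genes, Tap2 and Nlrc5 being the others, and the 250 bases before each start were searched on both strands. Capitals mark a kappaB-like match (GGGNNTTCC in H2-K1 and H2-D1, a form with 1 more T in B2m), the core of an interferon-stimulated response element (ISRE, GAANNGAAA), the TGACG core of the X2 box and an inverted or direct CCAAT box. The H2-K1 stretch lies at chr17:34000359-34000458 on the minus strand, the H2-D1 stretch at chr17:35262923-35263022 on the plus strand, the B2m stretch at chr2:122147561-122147638 on the plus strand, and the interval between the divergent Psmb9 and Tap1 starts at chr17:34187331-34187555.
H2-K1: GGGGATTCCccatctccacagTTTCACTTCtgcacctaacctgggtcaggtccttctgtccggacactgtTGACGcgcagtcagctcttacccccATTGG
H2-D1: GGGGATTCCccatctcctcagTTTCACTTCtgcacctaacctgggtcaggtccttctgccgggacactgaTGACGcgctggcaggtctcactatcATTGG
B2m: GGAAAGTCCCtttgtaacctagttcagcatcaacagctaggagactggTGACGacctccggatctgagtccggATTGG
Psmb9 and Tap1: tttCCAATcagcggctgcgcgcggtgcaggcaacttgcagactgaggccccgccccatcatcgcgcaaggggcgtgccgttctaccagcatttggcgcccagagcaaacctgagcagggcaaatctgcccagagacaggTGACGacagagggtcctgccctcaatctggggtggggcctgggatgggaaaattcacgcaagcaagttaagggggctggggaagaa

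The H2-K1 and H2-D1 stretches are identical at 89 of 100 positions. In both, the kappaB-like match and the ISRE core begin 21 bases apart. TGACG and ATTGG begin 25 bases apart in H2-K1, H2-D1 and B2m, a pair at a spacing that 30 of 32851 promoters hold (0.0913%), among them that of H2-M3, a class I gene outside the 10. The ISRE core was matched in 6.31% of all promoters, GGGNNTTCC in 4.98% and the form with 1 more T in 1.41%, while TGACG alone was in 17.8% and CCAAT in 33.8%. Among the 8 genes, the ISRE core was matched in 2 (H2-K1 and H2-D1), TGACG in 5 and CCAAT in 6. The B2m promoter holds GAAACTGAAA just before its printed stretch, a form with 1 more A that this ISRE pattern misses. That form was not searched, so the count of 2 covers the shorter pattern only. The STAT-binding GAS pattern TTCNNNGAA, held by 7.02% of promoters, was matched in Psmb8. Psmb9 and Tap1 start 225 bases apart on opposite strands, and the interval between them held no match to the ISRE, GAS or kappaB patterns, which says only that these letters are not in this window. A match is a description of the sequence, and binding was not measured.

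Levels are given as log2 of the spot signal minus the array's 75th percentile, so that 0 is a signal at that percentile and 1 unit is a doubling. An array had 41.7% to 54.7% of its probes well above background and no saturated spot. Controls 1 and 2 and knockouts 1 and 2 were on one slide, control 3 and knockout 3 on another. For knockout 2 and control 3 the title and description contradict the source name and genotype. Groups follow the title and description, and Arid1a went with them. Its level was 3.71, 3.47 and 4.01 in the control group, in the order of replicates, and 2.20, 2.07 and 2.51 in the knockout group, a fall of the log2 level by 1.47 (limma, adjusted p = 0.00733). By the Y-linked gene Eif2s3y and Xist, control 1 and knockouts 1 and 3 were male and the other arrays female, so each group holds more than 1 mouse. Epithelial markers were bright: Krt8, a keratin of simple epithelia, was at 8.76 to 9.79 and Vil1, the brush border protein villin, at 8.14 to 8.76 on the 6 arrays.

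Of the 10 class I presentation genes, 2 rose in the knockout crypts: the transactivator Nlrc5, by 5.94-fold, and the transporter subunit Tap1, by 1.87-fold. The other 8 had log2 differences of 0.21 to 0.53 that did not pass the test, and 0 were called lower. Over all genes, 7.28% were called higher at an adjusted p under 0.05, 7.62% lower and 14.9% in either direction. On the scaled values, every knockout array lay above every control array for 6 of the 10 (Nlrc5, Tap1, Tap2, Psmb8, Psmb9 and Psmb10), against 19% of all genes. The difference was positive for 10 of 10, against 49.2% of all genes, and its median was 0.43 against -0.01. These genes are co-regulated and measured on the same arrays, so they are not independent of each other. In crypt RNA, more cells of a type and more RNA per cell cannot be told apart.

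**Figure D1:**
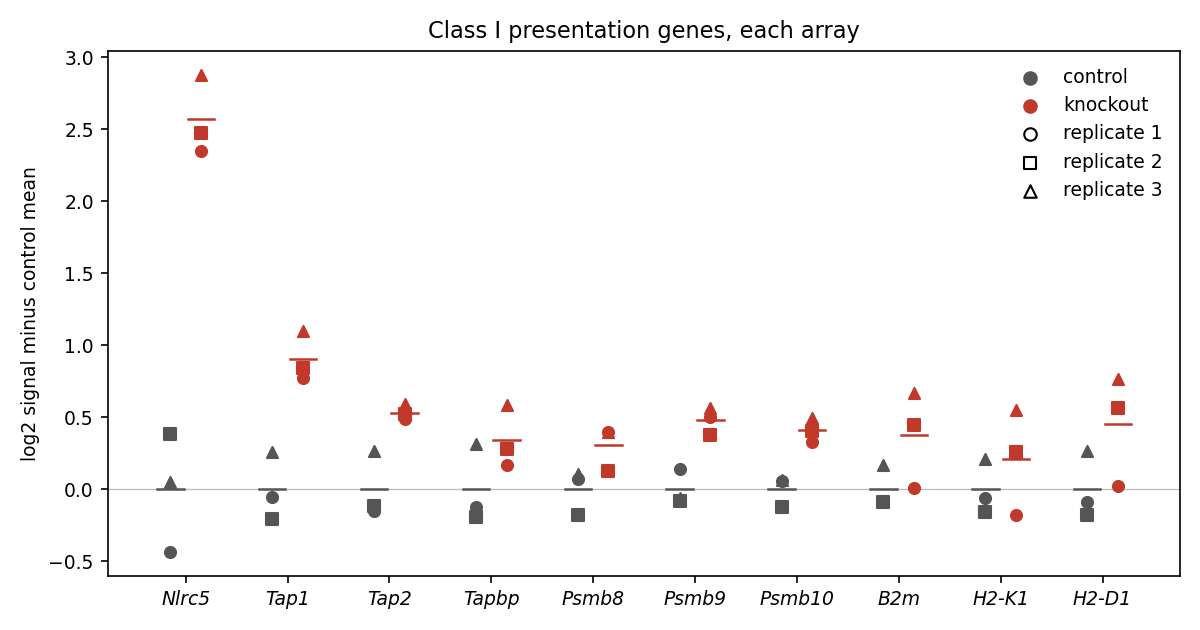
Log2 signal minus the gene's control mean for the 10 class I presentation genes on each of the 3 control and 3 knockout arrays, with marker shapes for replicates and short lines at group means. Nlrc5 shows the widest gap, with the knockout arrays 2.35 to 2.88 above the control mean, and knockout 1 lies among the controls for B2m and H2-D1 and below them for H2-K1.

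Nlrc5, the NOD-like receptor that assembles on the X box and neighbouring elements of class I promoters, stood at -0.50, 0.32 and -0.01 on controls 1 to 3 and at 2.29, 2.41 and 2.82 on knockouts 1 to 3. The lowest knockout array was 1.97 above the highest control array. The log2 difference was 2.57 ± 0.26 (SE, 3 arrays per group; 95% confidence interval 1.96 to 3.18; limma, adjusted p = 0.00246), larger than that of 98.9% of all genes. It was 2.44 on the first slide and 2.83 on the second. Its other probe was well above background on 2 arrays, knockouts 1 and 3, and was not kept. That probe read -4.18, -4.59 and -4.42 on the controls and -2.49, -3.31 and -2.11 on the knockouts. Without knockout 2 and control 3, whose labels conflict, the kept probe's difference was 2.64 with an adjusted p of 0.0498, and with groups taken from source name and genotype it was 0.95 with an adjusted p of 0.999. It was called in 22 of 23 alternative fits, the exception being the groups from source name and genotype.

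Tap1, the transporter subunit that forms a channel with Tap2, stood at 4.22, 4.07 and 4.53 on the controls and at 5.05, 5.12 and 5.38 on the knockouts. The groups did not overlap, and each knockout array exceeded the highest control by at least 0.52. The difference was 0.91 ± 0.19 (SE; 95% confidence interval 0.46 to 1.35; limma, adjusted p = 0.0246). It was 0.94 on the first slide and 0.85 on the second, and the slide as a block gave an adjusted p of 0.0131. A second, dimmer Tap1 probe read 1.76, 1.63 and 1.94 on the controls and 2.57, 2.49 and 2.66 on the knockouts, a difference of 0.80 (adjusted p = 0.0312). The direction held in all 24 alternative fits of Tap1, but the call in 13 of them. The adjusted p was 0.124 without the arrays with conflicting labels, 0.0599 with sex as a block, 0.0715 on the first slide alone, 0.0951 without a filter on dim probes, 0.104 with each array scaled to its median and 0.133 without scaling. It was 0.101, 0.0878, 0.0708 and 0.058 without control 1, control 2, knockout 2 and knockout 3 in turn, and it was 0.999 with groups from source name and genotype.

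Tap2, its partner in the transporter, stood at 5.04, 5.07 and 5.46 on the controls and at 5.68, 5.71 and 5.78 on the knockouts. The groups did not overlap on this scale, but control 3 lay 0.22 below the lowest knockout array. The difference of 0.53 ± 0.17 (SE; limma, adjusted p = 0.081) did not pass the test. Slide by slide it was 0.64 and 0.32. The chaperone tapasin (Tapbp) stood at 6.10, 6.03 and 6.54 on the controls and at 6.39, 6.51 and 6.81 on the knockouts. Here control 3 exceeded knockouts 1 and 2, and the difference of 0.35 ± 0.21 (SE; limma, adjusted p = 0.272) did not pass. A second Tapbp probe gave a difference of 0.51.

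On the scaled values, the immunoproteasome subunits showed small gaps between groups that did not overlap, and they did not pass the test. Psmb8, the inducible counterpart of Psmb5, stood at 5.76, 5.51 and 5.79 on the controls and at 6.08, 5.82 and 6.08 on the knockouts, with a gap of 0.02 between the nearest arrays and a difference of 0.31 ± 0.17 (SE; limma, adjusted p = 0.231). Psmb9, the counterpart of Psmb6, stood at 5.97, 5.76 and 5.77 on the controls and at 6.34, 6.21 and 6.40 on the knockouts, a difference of 0.48 ± 0.15 (SE; limma, adjusted p = 0.0762). Every knockout array of Psmb9 exceeded the highest control by at least 0.24. Psmb10, the counterpart of Psmb7, stood at 7.84, 7.66 and 7.85 on the controls and at 8.11, 8.19 and 8.28 on the knockouts, a difference of 0.41 ± 0.15 (SE; limma, adjusted p = 0.106).

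Since the inducible subunits replace constitutive ones, their log ratio to that partner was also taken, without a test. Knockout minus control, the log2 ratio was 0.21 for Psmb8 over Psmb5, 0.24 for Psmb9 over Psmb6 and 0.17 for Psmb10 over Psmb7. The groups did not overlap for Psmb9 over Psmb6, whose ratio, centred on the control mean, was 0.02, -0.01 and -0.01 on the controls and 0.30, 0.04 and 0.38 on the knockouts. They overlapped for the other pairs. The ratio is within an array and shows unequal change of the 2 probes, not that one of them did not change.

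The class I molecule itself overlapped between the groups. B2m, the invariant light chain, stood at 8.09, 8.09 and 8.35 on the controls and at 8.19, 8.63 and 8.85 on the knockouts, a difference of 0.38 ± 0.21 (SE; 95% confidence interval -0.13 to 0.88; limma, adjusted p = 0.247). H2-D1, a classical heavy chain, stood at 7.50, 7.41 and 7.86 on the controls and at 7.61, 8.15 and 8.36 on the knockouts, a difference of 0.45 ± 0.24 (SE; 95% confidence interval -0.12 to 1.02; limma, adjusted p = 0.228). Knockouts 2 and 3 were above every control for both genes, and knockout 1 was among the controls. H2-K1, the other classical heavy chain, stood at 8.83, 8.73 and 9.10 on the controls and at 8.71, 9.15 and 9.44 on the knockouts. On this scale knockout 1 was the lowest array of all. Its unscaled signal of 122278 was above those of knockout 2 (117198) and control 2 (118570). The H2-K1 difference was 0.21 ± 0.23 (SE; 95% confidence interval -0.33 to 0.76; limma, adjusted p = 0.533), and a second probe gave 0.26. The intervals of the 3 genes include 0 and, for H2-D1, also a doubling. Heavy chain genes are close copies of each other and the strain is mixed, so their probes may read more than one of them.

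**Figure D2:**
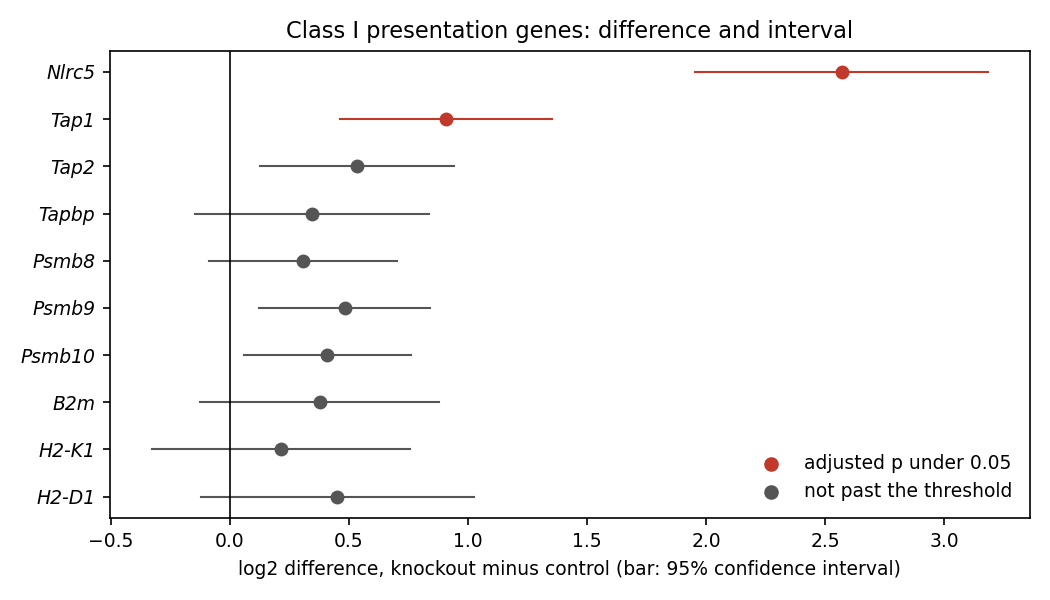
Log2 difference (knockout minus control) of each class I presentation gene, with its 95% confidence interval from limma over 3 arrays per group. Nlrc5 at 2.57 and Tap1 at 0.91 are the genes past the adjusted threshold, and the intervals of Tapbp, Psmb8, B2m, H2-K1 and H2-D1 cross 0.

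On the scaled values, the 10 genes shared an order of arrays. Knockout 3 was the highest array of its group for 10 of 10 genes, and control 3, on the same slide, was the highest control for 8. Knockout 1 was the lowest of its group for 8 genes, and knockout 2 for Psmb8 and Psmb9. The unscaled signals did not keep this order: knockout 1 was then the highest of its group for Tap1, Tap2, Tapbp, Psmb8, Psmb9 and Psmb10. It was the lowest for H2-D1 only. By role, the mean deviation from the control mean on knockouts 1, 2 and 3 was -0.05, 0.42 and 0.66 for B2m and the heavy chains. It was 0.48, 0.55 and 0.76 for transport and loading and 0.41, 0.30 and 0.49 for the immunoproteasome. Control 3 stood at 0.22, 0.28 and 0.04 in the same order of roles. Over all genes, 40.4% were higher on control 3 than on both other controls. The shares of all genes with knockout 3 highest or knockout 1 lowest were not taken. The order is thus not shown to be particular to these 10 genes.

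**Figure D3:**
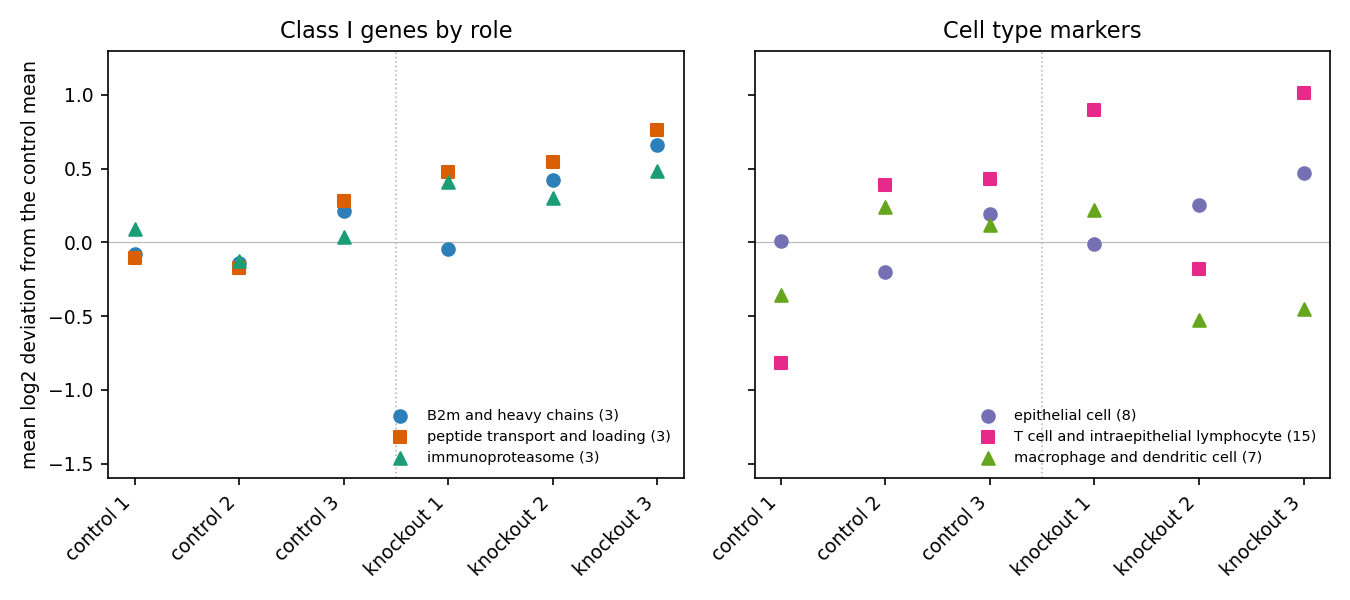
Mean log2 deviation from the control mean on each array, for the class I genes by role (left, without Nlrc5) and for 3 cell type marker lists (right), with the number of genes in brackets. On the scaled values, the B2m and heavy chain points run from -0.05 on knockout 1 to 0.66 on knockout 3. The epithelial markers run from -0.01 to 0.47, while the T cell markers drop to -0.18 on knockout 2.

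The size of the smaller differences depended on the scaling between arrays. That percentile was a signal of 279 to 295 on the controls and knockout 1 but of 206 on knockout 2 and 205 on knockout 3, so that dividing by it raised the last pair. Scaling to the array median moved the median difference of all genes to -0.26, and leaving out any scaling moved it to -0.33. Under these settings 1 of the 10 genes, Nlrc5, was called, with differences of 2.32 and 2.25, and Tap1 stood at 0.66 and 0.59. H2-K1 turned to -0.035 and -0.11, and Psmb8 to -0.011 without scaling. B2m was at 0.13 and 0.06. In the unscaled signals the groups stayed apart for Nlrc5 and Tap1 but overlapped for Tap2, Psmb8, Psmb9 and Psmb10. Relative to the shifted median, the differences were as large as before, since these settings move all genes of an array together. Quantile normalization, which does not, gave 0.24 for B2m and 0.08 for H2-K1.

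**Figure D4:**
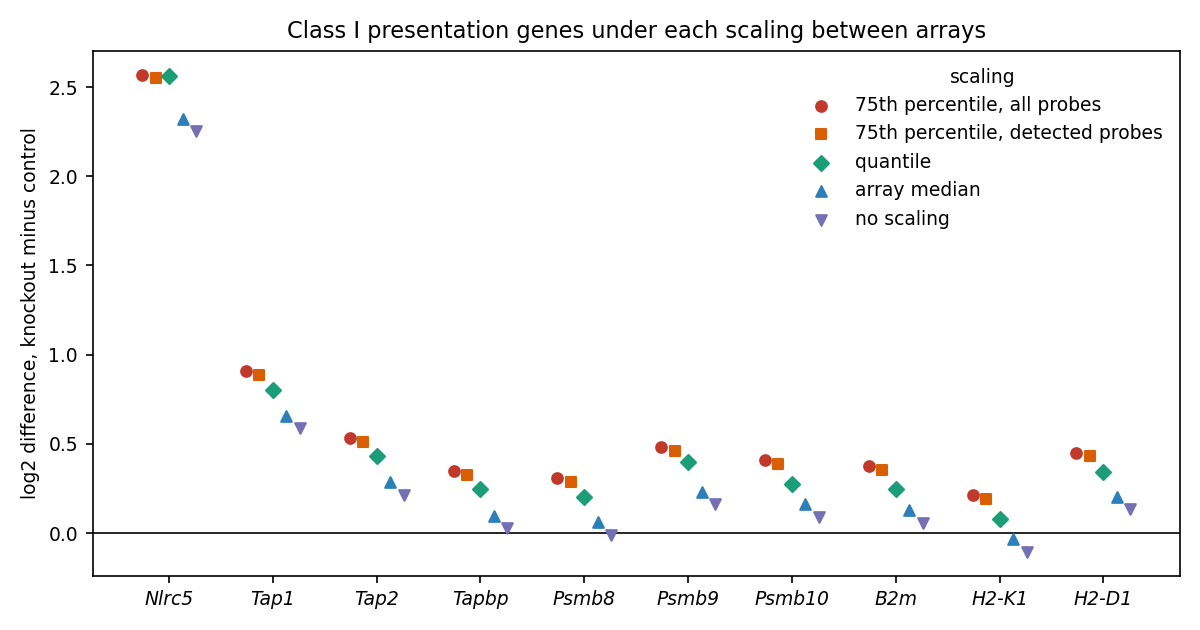
Log2 difference (knockout minus control) of each class I presentation gene under 5 scalings between arrays, a marker per scaling. Nlrc5 stays between 2.25 and 2.57, while H2-K1 runs from -0.11 without scaling to 0.21 on the 75th percentile.

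Among the transcription factors known to act on class I genes, 3 of 19 measured rose and 1 fell. The shares of all genes called were 7.28% higher and 7.62% lower. Irf1, which binds the ISRE, stood at 6.51, 6.39 and 6.73 on the controls and at 7.39, 7.93 and 7.85 on the knockouts, a difference of 1.18 ± 0.20 (SE; limma, adjusted p = 0.0141). Irf8, a relative of Irf1 known from myeloid and lymphoid cells, rose by 1.29 (limma, adjusted p = 0.00435). The groups did not overlap for Irf1 and Irf8. Creb1, which binds the X2 box, fell by 0.73 on its brightest probe (limma, adjusted p = 0.0197), but its other kept probes gave 0.17 and 0.43, so its direction is uncertain. The subunits of the RFX complex, on which Nlrc5 assembles, did not pass: the differences were 0.43 for Rfx5, -0.14 for Rfxap and 0.05 for Rfxank. Rfx5 was dim, and its probe was well above background on 1 control and 2 knockout arrays. Ciita, the transactivator of class II genes and a relative of Nlrc5, was at 0.31 and not called. Without the arrays with conflicting labels, 0 of the 19 were called in limma, and 4 had a positive difference with an unadjusted p under 0.05.

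Of 12 genes in a list of interferon signalling, chosen around interferon gamma but holding the type I genes Stat2, Ifnar1 and Ifnar2 as well, 6 rose and 0 fell, and the median difference was 0.91. Beside these counts, 7.28% of all genes were called higher and 7.62% lower. Of the 6, Stat2 and Ifnar2 belong to the type I branch. Socs1, the feedback inhibitor of JAK kinases, stood at -0.07, 0.56 and 0.11 on the controls and at 3.71, 3.37 and 3.49 on the knockouts, a difference of 3.32 ± 0.21 (SE; limma, adjusted p = 0.000595). Ifng, the cytokine, was dim on the 3 control arrays, where its probe did not stand well above background, and it did on all 3 knockout arrays. It was at least 8.68-fold higher (limma, adjusted p = 0.00168), the bound being the knockout mean against the lowest signal well above background on the control arrays, or the probe's own where that was higher. Ifng met the filter of 3 arrays only through the knockout group, so its p and its place among the 6 are not free of that selection. Stat2, a factor of type I interferon signalling, rose by 1.502 (limma, adjusted p = 0.0041), the kinase Jak2 by 1.17 (adjusted p = 0.0241) and the type I receptor subunit Ifnar2 by 0.65 (adjusted p = 0.0443). The interferon gamma receptor chains Ifngr1 and Ifngr2, at 0.44 and -0.24, did not pass. Without the arrays with conflicting labels, 2 of the 12 were called (Socs1 and Ifng). Whether these differences bear on those of the class I genes was not tested.

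Of 18 measured genes among 26 other class I heavy chains and class I-like genes, 2 rose and 1 fell, with a median difference of 0.34. Over all genes, 7.28% were called higher and 7.62% lower. H2-T10 stood at 1.06, 1.08 and 0.996 on the controls and at 1.73, 1.57 and 1.70 on the knockouts, a difference of 0.62 ± 0.14 (SE; limma, adjusted p = 0.0325). Its close copy H2-T22, a ligand of some gamma delta T cells, stood at 2.84, 2.88 and 2.92 on the controls and at 3.50, 3.33 and 3.62 on the knockouts, a difference of 0.61 ± 0.15 (SE; limma, adjusted p = 0.0418). The 2 genes are close copies and may share signal, and with each array scaled to its median their adjusted p was 0.27 and 0.29. With sex as a block it was 0.0856 for H2-T10 and 0.102 for H2-T22, and leaving out any 1 array other than knockout 1 ended both calls (0.0725 to 0.157). Hfe, a class I-like protein of iron balance that binds no peptide, stood at -1.31, -1.14 and -1.71 on the controls and at -2.22, -2.23 and -2.57 on the knockouts, a fall by 0.95 (limma, adjusted p = 0.0292). With normexp background correction the Hfe difference was -0.46 (adjusted p = 0.0728). The non-classical heavy chains H2-Q7 and H2-T23, at 0.51 and 0.18, and Mr1, which presents vitamin metabolites to MAIT cells, at 1.13 ± 0.39 (SE; limma, adjusted p = 0.0993), did not pass. Mr1 did pass with the replicate number as a block (adjusted p = 0.0134), with sex as a block (0.0382), with array quality weights (0.0215) and without knockout 1 (0.0371). Hfe did not pass with sex as a block (0.0667) or without control 1, control 2, knockout 2 or knockout 3 (0.068 to 0.113). H2-Q7 and H2-T23 were taken as examples after their values were seen. Without the arrays with conflicting labels, 0 of the 18 were called in limma.

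Of 16 genes of peptide trimming and loading in the endoplasmic reticulum, 1 rose, against 7.28% of all genes. Tapbpl, the tapasin relative that edits the peptides bound by class I molecules, stood at 1.95 to 2.05 on the controls and at 2.74, 2.69 and 2.85 on the knockouts, a difference of 0.76 ± 0.14 (SE; limma, adjusted p = 0.0181). The tapasin gene itself, given above, did not pass. The chaperone calnexin (Canx) was at -0.23, the disulfide isomerase Pdia6 at -0.24 and the trimming peptidase Erap1 at -0.12, and they did not pass, nor did the protease Ide at -0.63 (limma, adjusted p = 0.0717). The median over the 16 was 0.05. Tapbpl was not called without the arrays with conflicting labels (adjusted p = 0.157), with each array scaled to its median (0.143) or with sex as a block (0.0533), nor without control 1, control 2, control 3 or knockout 2 (0.0557 to 0.0828).

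Of 18 measured genes of the proteasome activator, assembly factor and constitutive core, 0 were called in limma in either direction, and 2 had a positive difference with an unadjusted p under 0.05, against 16.3% of all genes. The difference was positive for 18 of 18, against 49.2% of all genes, with a median of 0.25. For 9, every knockout array lay above every control array, against 19% of all genes. Pomp, the assembly factor of the core particle, stood at 6.98, 6.85 and 6.79 on the controls and at 7.34, 7.52 and 7.41 on the knockouts, a difference of 0.55 ± 0.15 (SE; limma, adjusted p = 0.0504). Pomp lay at the threshold and passed in several alternatives, among them the slide as a block (adjusted p = 0.0469), normexp (0.0316), trend with robust eBayes (0.0342), array quality weights (0.0118) and without knockout 1 (0.0359). The core subunits Psma1, Psma6 and Psmb4 were at 0.36, 0.40 and 0.29, with adjusted p of 0.139, 0.199 and 0.203. The activator subunit Psme1, at 0.29, was not called either. The 3 immunoproteasome differences (0.31 to 0.48) lay inside the range of the constitutive list (0.04 to 0.55), and the difference between the lists was not tested.

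**Figure D5:**
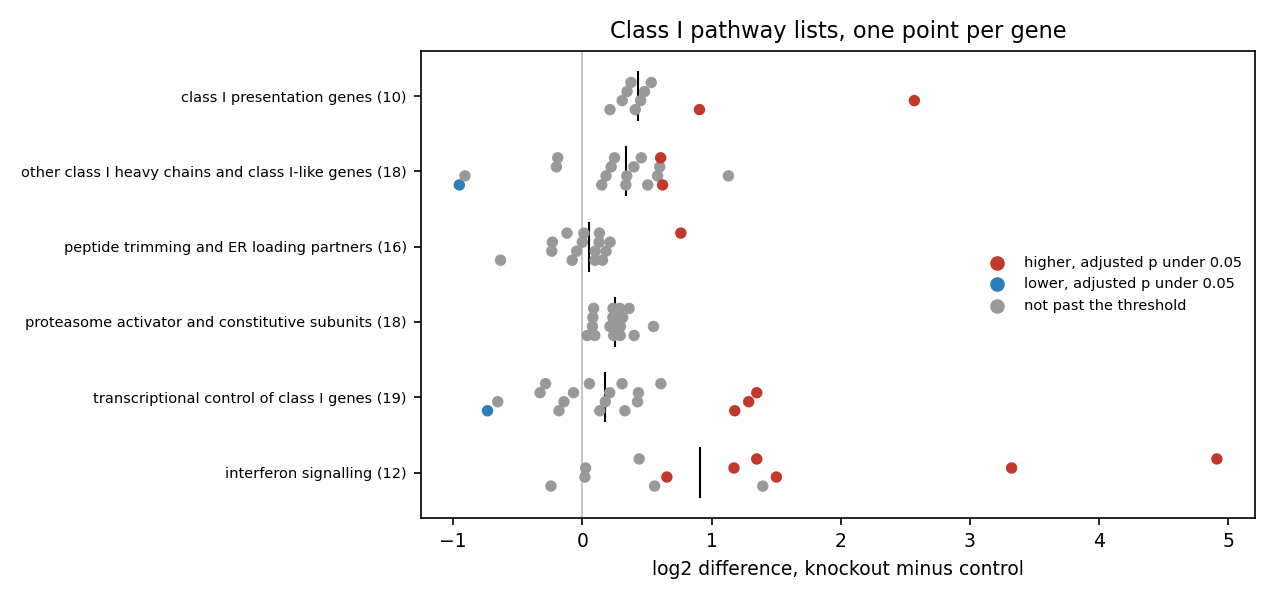
Log2 difference (knockout minus control) of every measured gene in 6 lists, a point per gene, coloured by its call, with a black bar at each list's median. The class I genes lie from 0.21 to 2.57 with 2 called, and interferon signalling has its median at 0.91 with 6 of 12 called. Its rightmost point is the fitted value of Ifng, which did not stand well above background in the controls.

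Class I genes are expressed by immune cells as well as epithelium, and markers of the other cells were read beside them. For T cells and intraepithelial lymphocytes, 15 of 18 markers were measured and 0 were called in limma. Of their differences, 13 were positive, against 49.2% of all genes. Their mean deviation was -0.82, 0.39 and 0.43 in the control group and 0.90, -0.18 and 1.02 in the knockout group, so the groups overlapped. Without the arrays with conflicting labels, 2 were called higher. On knockout 2, an array with conflicting labels, this mean was below controls 2 and 3. The pan-leukocyte gene Ptprc was at -1.92, -0.44 and -0.84 on the controls and at 0.07, -1.25 and 0.02 on the knockouts. For natural killer and innate lymphoid cells, 5 of 9 markers were measured and Eomes and Gata3 rose (1 of them called without the arrays with conflicting labels), while the defining markers Ncr1, Klrb1c and Klrk1 were too dim to be kept. Eomes was well above background on 0 control arrays and met the filter only through the knockout group, so its call is not free of that selection. The mean deviation of this list was -0.36 to 0.25 on the controls and 0.70 to 1.58 on the knockouts.

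Markers of B and plasma cells (4 of 8 measured, 0 called in limma) were at -0.40 to 0.36 on the controls and at -0.40 to -0.02 on the knockouts, with Ms4a1 and Cd79a too dim. For macrophages and dendritic cells, 7 of 14 were measured. Cd68 rose and Lyz2 fell, neither of them called without the arrays with conflicting labels. The list's mean was at -0.36 to 0.24 on the controls and at -0.53 to 0.22 on the knockouts, and Adgre1, Xcr1 and Zbtb46 were too dim. For stroma and endothelium, 2 of 8 were measured, at -0.11 to 0.16 on the controls and at 0.24 to 0.99 on the knockouts, and the collagen genes Col1a1, Col1a2 and Col3a1 were too dim. Of the 8 epithelial markers, 0 were called in limma and 7 were positive, against 49.2% of all genes. The exception was Cdx2, at -0.55 (limma, adjusted p = 0.0626). Its knockout arrays all lay below its control arrays, as for 20.7% of all genes. The mean deviation of the 8 markers was 0.01, -0.20 and 0.19 on the controls and -0.01, 0.26 and 0.47 on the knockouts. On the scaled values, B2m and the heavy chains had the same order of knockout arrays as the mean of this list. The part of these cell types, or of the share of epithelium, in the class I differences was not tested.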

How the data were processed

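Total RNA of the crypts was amplified, Cy3-labelled and read on an Agilent array for each sample, per the labels' protocols. Spot intensity was deposited as the authors' Feature Extraction output. The file headers give its version as 12.0.3.1, while the submitters' processing notes give 11.5.1.1. The processed intensity is background-subtracted within its array and unscaled between arrays, per the file headers. A series table deposited by the authors, used as an alternative, gives log2 values on the 75th percentile scale, centred on each probe's median. The medians of its columns were 0.196, 0.0606 and -0.322 (controls 1 to 3), then -0.0717, 0.214 and -0.183 (knockouts 1 to 3).

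Control and outlier-flagged spots were left out, spots of a probe averaged, and log2 signal minus the array's 75th percentile taken. Probes were named by accession through a RefSeq table (GRCm38.p6): 33767 of 56605 received a symbol. Probes were kept if well above background on 3 or more of 6 arrays, 1 per gene by highest mean, giving 13496 genes. limma 3.58.1 (R 4.3.3) was fitted with group as the only term, and called at a two-sided Benjamini-Hochberg adjusted p under 0.05. The code was tested on simulated data. The number of arrays limits the precision.

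The class I genes and the other lists were chosen with earlier results of these data known. Named genes were every class I gene, up to 4 genes of smallest p from each other pathway list, called class I-like genes, the 5 genes most like the class I pattern, and Arid1a. Others were named after their values were seen. Some genes of these lists enter the counts but are not reported here by name.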

Additional observations from a re-analysis of the deposited data

How the results depend on the processing

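Of the 10 class I genes, 2 were called higher, and 0 were called lower under any alternative. With groups from source name and genotype 0 were called higher in limma, where 0 of the 10 had an unadjusted p under 0.05. Without both arrays with conflicting labels, on slide 1 alone, with sex as a block, with array-median scaling, without scaling (chosen after seeing the data), without a filter on dim probes, at an adjusted p under 0.01 and at 2-fold, 1 was called, Nlrc5. Array quality weights gave 7, with 18.6% of all genes called higher. Leaving out 1 array gave 1 to 2. The slide block, normexp, the percentile over detected probes, quantile normalization, the filter on all 6 arrays, the mean of probes, trend with robust eBayes and the authors' table gave the same 2 genes.

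The replicate block also called 2, with 1329 genes (9.85%) higher in place of 982. Deviations of same-numbered arrays correlated at 0.25, 0.08 and 0.35, each array best with its own number. Control 3 and knockout 3 also share a slide. Since one pair was under 0.1 and the labels tie no numbers to mice or days, the fit without the block was kept.

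Reversed values were H2-K1 at -0.035 with array-median scaling and -0.11 without scaling; Psmb8 at -0.011 and Psmb4 at -0.024 without scaling; Canx at 0.10 and Psma6 at -0.20 with groups from source name; and Creb1 at 0.17 and 0.43 on its other probes. The cause was not tested.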

Other observations

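The genes outside the lists whose level followed the class I genes most closely over the 6 arrays were Pkp3, Slc9a2, Myo7a, Sco1 and Capzb. Pearson's r with the mean of the 10 scaled profiles was 0.993 to 0.997, as a description over 6 arrays that share slide and scaling. Pkp3, a plakophilin of desmosomes, stood at 1.69, 1.59 and 2.002 on the controls and at 2.27, 2.54 and 2.86 on the knockouts, a difference of 0.80 (limma, adjusted p = 0.0493, and 0.196 without the arrays with conflicting labels). The sodium/proton exchanger Slc9a2 had a difference of 1.01 (adjusted p = 0.0532). Myo7a, an unconventional myosin, was at 0.67, the actin capping subunit Capzb at 0.62 and Sco1, a copper chaperone of cytochrome c oxidase, at 0.43, and they did not pass the test in limma.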
